A study of Solanum tuberosum with 72 samples.

Results

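Cold acclimation of plants is known to begin with calcium and kinase signalling, to proceed through transcription factors such as the CBF and WRKY families, and to reach carbohydrate metabolism, photosynthesis, membrane lipids and protective proteins over hours to days. In leaves, starch breakdown and sucrose synthesis set how much soluble sugar accumulates, and potato tubers are known to sweeten in the cold. The later times of a cold treatment show which changes last and which differ with time. The changes described here are those of potato (Solanum tuberosum) leaf after 9 and 27 h at 4 °C.

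The samples were 12 of the 72 spotted 2-colour arrays of the study, 3 cold and 3 control arrays at each of the 2 times, taken by their titles and paired by replicate number. Seedlings of the commercial true-seed variety Gilroy were grown for 5 weeks on hydroponic medium at 25 °C with 16 h of light and 8 h of dark. For the cold groups the medium was exchanged for chilled medium and the boxes stood on ice, and for the control groups the medium was exchanged in the same way without cold. All groups thus share a change of medium. The tissue called leaf is the whole aerial part, a sample pooled 6 plants from 2 boxes, and the replicate numbers 1 to 3 are independent repeats of the experiment. The reference on each array was unstressed RNA of 6 boxes, of the same tissue, time and experiment. The fit used all 36 leaf arrays of the study, which also include 3 h arrays and arrays of heat (35 °C) and salt stress. Arrays give ratios and not levels, so the tissue could not be checked against leaf markers by level. In pooled aerial tissue, fewer cells of a type and less RNA per cell cannot be told apart.

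Cy3 carried the sample and Cy5 the reference on all arrays, but the sources used here do not say which channel is the numerator of the deposited log2 ratio. A positive change therefore means a higher log2 ratio on cold than on control arrays, and it can be a rise or a fall of RNA. Signs can be compared between spots, times and tissues, since the dyes were never swapped. Spots are named by their number in the deposited table. Of the 16772 spots tested, 1399 belonged to 1 of 398 named genes, and 15373 had no single gene name here. A gene was called where the majority of its tested spots passed an adjusted p of 0.05 with the same sign, and its value is the median over its spots. Most spots were printed as duplicates, so that a gene can count as several spots.

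The share of tested spots that lay at least 2-fold from the reference was far higher on cold than on control arrays at both times. After 9 h it was 9.10%, 11.4% and 6.40% on the cold arrays of experiments 1 to 3, and 0.822%, 0.389% and 0.314% on the control arrays. After 27 h it was 7.48%, 7.15% and 6.76% with cold, and 0.156%, 0.616% and 1.06% without. The groups did not overlap at either time. The excess over the same-numbered control was 8.47 ± 2.49 percentage points at 9 h and 6.52 ± 0.81 at 27 h (SD, n = 3). It was larger at 9 h in all 3 experiments, with 8.28, 11 and 6.08 against 7.32, 6.54 and 5.70. A two-sided exact permutation test without the pairing gave p = 0.3, and with 3 arrays a time it could not go below 0.1. Cold arrays of 9 h varied more, and the array of experiment 1 at 9 h had values on 15580 spots against 16631 to 20545 on the other arrays.

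Cold changed about the same number of spots at the 2 times, and mostly the same way. At 9 h 4168 of 16772 spots were called by limma, or 24.9%, with 2166 positive (12.9%) and 2002 negative (11.9%). At 27 h 4071 were called, or 24.3%, with 2059 positive (12.3%) and 2012 negative (12%). Large changes were mainly positive: 110 called spots reached 4-fold in the positive direction at 9 h and 93 at 27 h, and in the negative direction 6 and 5 did. Called at both times with the same sign were 2282 spots, 1223 positive and 1059 negative, or 13.6% of all spots and 54.8% of the 9 h calls and 56.1% of the 27 h calls. These sustained spots had median log2 changes of 0.90 at 9 h and 0.84 at 27 h when positive, and -0.76 and -0.75 when negative. Of the 1975 sustained spots with a value on all 12 arrays, 1932 had the same sign in all 6 differences between same-numbered arrays. The calls rest on the same arrays, so this count follows largely from the choice of spots. The sustained count was 1732, 625 and 1254 without experiment 1, 2 and 3 and 818 with quantile scaling, and 64.2% of the 625 were positive against 53.6%. Without experiment 2 the 9 h count was 1536 and the 27 h count 1451, and without experiment 3 the 27 h count was 2463. With quantile scaling the counts were 1820 at 9 h and 2128 at 27 h. Without the 9 h control array of experiment 2 the 9 h count was 2740. Without the 27 h cold array of experiment 1 or 2, or the control array of experiment 1, the 27 h count was 2704, 2317 or 2659.

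A call at only 1 of the times did not mean that the change differed between them. Called at 9 h alone were 1844 spots, and 81.7% of them had an estimate of the same direction at 27 h. Called at 27 h alone were 1747, with 82.1% in the same direction at 9 h. The difference itself was called for 121 and 46 of these spots. Over all 16772 spots 71.2% had the same direction at both times, and the changes correlated with r = 0.71 across spots. This is a description, since spots are not independent, but the times share no array and no reference pool. The plot of all spots at both times shows the cloud along the diagonal.

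**Figure D1:**
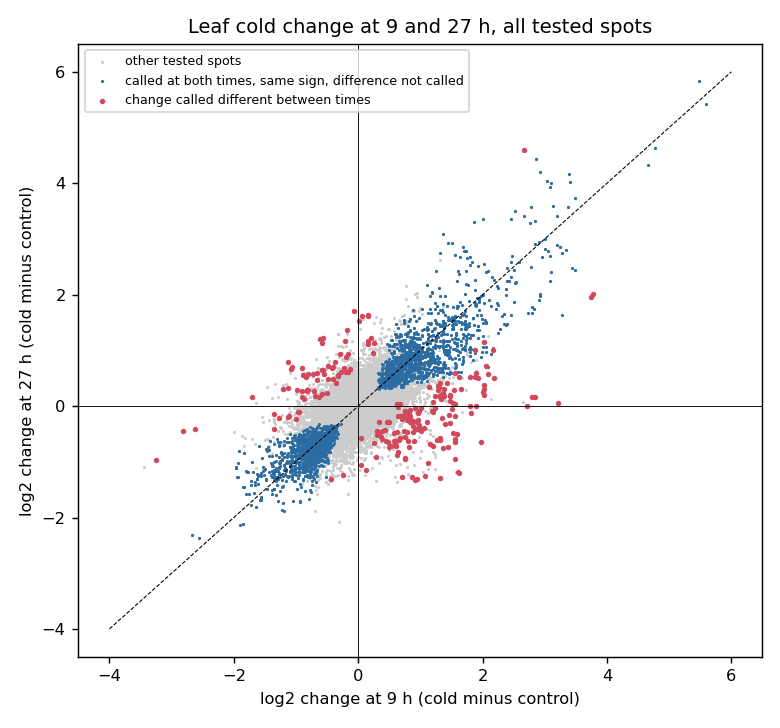
Log2 change (cold minus control) of the 16772 tested spots at 9 h (horizontal axis) and 27 h (vertical axis). Each point is a spot, blue where it was called at both times with the same sign and red where the change differed between the times; the dashed line marks equal change, and the 223 red points lie mostly below it.

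The strongest sustained changes belonged to a small set of positive spots. Spot 143827, with no gene name here, had log2 ratios of 2.68, 5.93 and 5.94 on cold arrays at 9 h and -2.40, 0.38 and 0.14 on the control arrays of the same experiments. At 27 h it had 5.84, 5.61 and 6.75 with cold and 0.00, 0.26 and 0.44 without. Cold and control did not overlap, and both arrays of experiment 1 at 9 h were low together. The fitted change was 5.48 at 9 h (SE 0.50, limma adjusted p = 5.7e-08) and 5.83 at 27 h (SE 0.50, limma adjusted p = 3.86e-08). Spot 154461 changed by 4.66 at 9 h and 4.33 at 27 h and spot 156314 by 3.01 and 3.00. Duplicate prints of these spots gave 5.59 and 5.42, 4.78 and 4.63, and 2.85 and 2.91. Spot 137950 followed with 3.34 and 2.81, and the gene RSI5 with 3.25 and 2.86 on spot 150266.

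A large sustained change was that of LOC102577835 (ChtA), a chitinase that attacks fungal cell walls. Its 4 spots had a median log2 ratio of 3.12, 3.44 and 1.93 on cold arrays at 9 h, against -0.13, 0.03 and -0.06 on control arrays. At 27 h the values were 4.56, 3.54 and 4.50 with cold and -0.61, -0.64 and 0.91 without. No cold array overlapped a control array. The median change was 2.89 at 9 h and 4.32 at 27 h, with limma adjusted p of at most 6.2e-06 and 6.53e-08 over the spots. The difference between 9 and 27 h was called for 1 of the 4 spots, so ChtA counts as sustained. Its annotation lists the copies ChtA1 to ChtA4 as synonyms, and the part of each copy in these spots was not tested.

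LOC102577637 had changes of 3.49 and 3.73 on spot 159279, above the ChtA median at 9 h and below it at 27 h. On this spot the cold arrays lay between 2.86 and 3.68 over both times and the control arrays between -1.06 and 0.12. Root went the other way, with changes of -0.66 at 9 h (limma adjusted p = 0.0441) and -1.14 at 27 h (limma adjusted p = 0.000656). The difference between leaf and root was 4.15 at 9 h (limma adjusted p = 4.14e-11) and 4.87 at 27 h (limma adjusted p = 3.84e-13).

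LOC102586657 (CCoAOMT), a methyltransferase of lignin synthesis, changed by nearly the same amount at both times. Its median log2 ratio was 1.92, 2.37 and 1.77 with cold at 9 h and 0.01, -0.41 and -0.16 without. At 27 h it was 2.13, 2.30 and 2.24 with cold and 0.19, -0.23 and 0.08 without. The median change was 2.21 at 9 h and at 27 h, with limma adjusted p of at most 1.04e-05.

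Negative sustained changes were smaller, and 145 spots were at least 2-fold negative at both times against 336 positive. Of the 145, 2 were at least 4-fold negative at both times. Spot 148005 ranked first among the negative spots that had values on all 12 arrays, the same sign in every same-numbered difference and a called duplicate, with -1.90 at 9 h and -2.14 at 27 h. Spots 153805, 137182, 154606, 131289 and 145846 lay between -1.46 and -1.78 at the 2 times, and the files name no gene for them. Among named genes LOC102596122 (LOX-H1), a lipoxygenase of fatty acid oxidation, stood first. Its 8 spots had a median log2 ratio of -1.36, -2.38 and -1.71 on cold arrays at 9 h and -0.28, -0.16 and 0.08 on control arrays. At 27 h they had -1.03, -2.31 and -1.47 with cold and 0.46, -1.31 and 0.07 without. At 27 h the groups overlapped through the control array of experiment 2, but each cold array was below the control of its own experiment. The change was -1.67 at 9 h and -1.30 at 27 h, called on all 8 spots at both times with limma adjusted p of at most 0.0193.

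**Figure D2:**
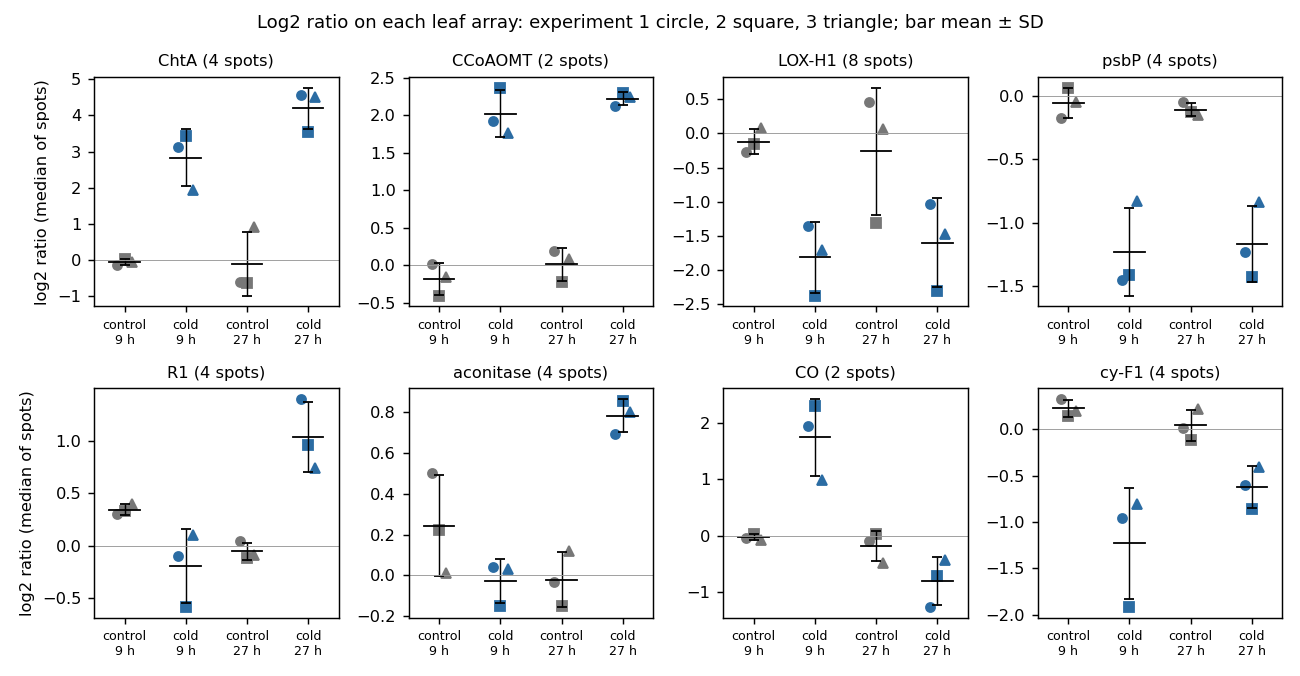
Log2 ratio to the reference (vertical axis, median over the gene's spots, with its own scale in each panel) on each control (grey) and cold (blue) leaf array at 9 and 27 h. Symbols mark the experiment and bars the mean ± SD of 3 arrays; ChtA, CCoAOMT, LOX-H1 and psbP were called at both times with the same sign, R1, aconitase and CO were called for a difference between the times, and cy-F1 was called at 9 h with no difference called.

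The signalling list holds kinases with a regulatory subunit, phosphatases and an NADPH oxidase. Of its 12 tested genes, 3 were called positive after 9 h and 7 after 27 h, and 1 and 0 were called negative. Among all 398 named genes 14.6% were called positive after 9 h and 18.1% after 27 h, and 8.79% and 8.04% were called negative. The list's median change was 0.26 at 9 h and 0.51 at 27 h, against 0.07 and 0.10 over all named genes. Earlier results of these data were known when the list was chosen, so these values only describe it. LOC102585585 (StWIPK), a MAP kinase of the wound response, changed by 1.03 and 0.98, and LOC102603986 (StMKP1), a MAP kinase phosphatase, by 0.62 and 1.12. LOC102598898 (RBOHC), an NADPH oxidase that makes superoxide, had 0.17 at 9 h and 1.03 at 27 h and was called at 27 h. PKIN1, a catalytic subunit of the energy-sensing kinase SnRK1, was called at 27 h with 0.88 after 0.28 at 9 h. LOC102591352 (GAL83), a regulatory subunit of that kinase, was negative at 9 h with -0.79 and had -0.49 at 27 h. The calcium-dependent kinases LOC102604043 (CDPK4) and LOC102594309 (CDPK5) and the MAP kinase LOC102583418 (StMPK2) each had 0.51 at 27 h and were called. LOC102584364 (StMPK3) was called at 9 h with 0.54 and had 0.29 at 27 h. None of these genes was called for a difference between 9 and 27 h. Several calls depended on the setting or on single arrays. Of 21 alternatives, the positive call at 27 h was kept in 21 for StMKP1, 20 for PKIN1 and 19 for CDPK5. It was kept in 14 for StWIPK and RBOHC, 13 for CDPK4 and 11 for StMPK2. At 9 h the call was kept in 17 for GAL83, 16 for StWIPK, 12 for StMPK3 and 11 for StMKP1.

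Of 15 tested genes of defence and wounding, 3 were called positive after 9 h and 4 after 27 h, and 1 negative each time. Over all 398 named genes 14.6% and 18.1% were called positive and 8.79% and 8.04% negative. Besides ChtA and LOX-H1, both sustained, the called genes of the list were 2 WRKY transcription factors and a lyase. STWRKY8 had log2 ratios of 1.26, 1.26 and 0.49 with cold at 9 h and 0.01, -0.71 and -0.21 without, and 1.60, 1.61 and 1.33 with cold at 27 h and -0.17, -0.46 and -0.36 without. The groups did not overlap, and the change was 1.34 at 9 h and 1.85 at 27 h. LOC102605073 (StWRKY16) changed by 1.03 and 1.37. HPL, a hydroperoxide lyase that makes volatile aldehydes, was called at 27 h with 1.07 and had 0.59 at 9 h. Proteinase inhibitor II (LOC102577839, 8 spots), known as a wound marker, was not called, with -0.47 and -0.21, and neither was PR1B, known as a marker of pathogen defence, with 0.00 and 0.10.

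Starch genes were called in both directions. Of 6 tested genes of starch synthesis, 1 was called positive each time, 1 negative after 9 h and 2 negative after 27 h. Over all 398 named genes 14.6% and 18.1% were called positive and 8.79% and 8.04% negative. LOC102596498 (SBE1), the starch branching enzyme, had log2 ratios of 1.01, 1.5 and 1.54 with cold at 9 h and 0.18, 0.22 and 0.08 without, and changed by 1.19 at 9 h and 1.31 at 27 h. LOC102582750 (agpS3), a small subunit of ADP-glucose pyrophosphorylase, the enzyme that provides the glucose donor for starch, had -0.72 and -0.65, called at both times. LOC102583115 (SS2), a starch synthase, was called negative at 27 h with -0.55 after -0.16 at 9 h. GBSS, the granule-bound starch synthase that makes amylose, had -0.46 and -0.58 and was not called. Of 4 tested genes of starch breakdown, AMYA1, an alpha-amylase, was positive at both times with 1.72 and 0.98, and R1 changed sign, as described below. Starch phosphorylase (LOC102577532, glgP) was not called, with -0.25 and -0.27.

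Of 8 tested genes of sucrose and hexose metabolism, 1 was called positive each time, 4 negative after 9 h and 2 negative after 27 h. Over all 398 named genes 14.6% and 18.1% were called positive and 8.79% and 8.04% negative. The positive gene of the list was SS16 (sus4), a sucrose synthase, with 1.20 at 9 h and 0.53 at 27 h, called at both. LOC102588954 (cy-F1), the cytosolic fructose-1,6-bisphosphatase on the path to sucrose, had log2 ratios of -0.96, -1.92 and -0.81 with cold at 9 h and 0.33, 0.15 and 0.20 without. At 27 h it had -0.60, -0.86 and -0.40 with cold and 0.02, -0.11 and 0.22 without. The groups did not overlap at either time, and the change was -1.44 at 9 h, which was called, and -0.66 at 27 h, which was not. The difference between the times was not called (limma adjusted p of 0.347 to 0.538 over the spots). LOC102604230 (InvCD141), an invertase, had -1.23 called at 9 h and -0.56 at 27 h. GPI, the glucose-6-phosphate isomerase, had -0.44 and -0.71, and HXKRP1 had -0.50 and -0.58, called at both times. Some of these calls depended on the setting or on single arrays. Of 21 alternatives, the 9 h call was kept in 11 for GPI and 10 for HXKRP1. The 27 h call was kept in 21 for GPI, 16 for HXKRP1 and 10 for SS16.

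No gene of photosynthesis was called positive. Of 6 tested, 2 were called negative at 9 h and 4 at 27 h, with list medians of -0.58 and -0.79. Over all 398 named genes 8.79% and 8.04% were called negative. LOC102603839 (psbP), a subunit of the oxygen-evolving complex, had log2 ratios of -1.45, -1.41 and -0.83 with cold at 9 h and -0.18, 0.06 and -0.05 without, and -1.23, -1.43 and -0.84 with cold at 27 h and -0.05, -0.13 and -0.15 without. Cold and control did not overlap, and the change was -1.15 at 9 h and -0.97 at 27 h (limma adjusted p of at most 0.000516 and 0.0225). LOC102594969 (RPE), the ribulose-phosphate epimerase of the Calvin cycle, was called at 9 h with -0.60 and had -0.44 at 27 h. THF1, a thylakoid protein, and LOC102602939 (GCVT), of the glycine decarboxylase of photorespiration, were called at 27 h with -0.89 and -0.94, after -0.39 and -0.55 at 9 h. PSBR, of photosystem II, was called negative at 27 h by 4 of its 6 spots, while 2 spots were called positive, up to 1.94, so its clones disagreed. Of 21 alternatives, the 27 h call was kept in 21 for THF1, 17 for psbP, 15 for GCVT and 14 for PSBR. The 9 h call was kept in 21 for psbP and 15 for RPE. PSBO, cab1 and SHMT did not have enough values to be tested.

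Of 14 tested mitochondrial genes, 1 was called positive after 9 h and 4 after 27 h, and 1 negative each time. Over all 398 named genes 14.6% and 18.1% were called positive and 8.79% and 8.04% negative. LOC102577429 (FDH), formate dehydrogenase, was positive at both times with 0.70 and 0.96. UCP, an uncoupling protein, and LOC102596607 (ANT), an adenine nucleotide translocator, were called at 27 h with 0.75 and 0.49, after 0.43 and 0.00 at 9 h. Aconitase, the other positive gene at 27 h, is described below. Of 21 alternatives, the positive call at 27 h was kept in 20 for FDH, 19 for UCP and for aconitase, and 11 for ANT. The FDH call at 9 h was kept in 15. LPD2 was negative at both times with -0.78 and -0.87. The genes of polyamine and methionine metabolism were 2 positive of 5 tested at 9 h and 1 at 27 h. LOC102601725 (SAMDC), S-adenosylmethionine decarboxylase, had log2 ratios of 1.24, 1.01 and 0.77 with cold at 9 h and 0.10, -0.14 and -0.12 without. It was called at 9 h on 14 of 16 spots with a median of 1.19, and at 27 h on 7 with a median of 0.48. The difference was called on 1 spot. LOC102578902 (METK2), which makes S-adenosylmethionine, had 1.18 and 0.82, and LOC102587738 (SpdSy), spermidine synthase, was called at 27 h with 0.45.

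The shorter lists held few calls. Of 4 antioxidant genes DHAR2, a dehydroascorbate reductase, was negative at both times with -0.88 and -0.62. CAT1, a catalase, was called at 9 h on 2 of 4 spots, with changes from -1.44 to -0.24. Of 3 phenylpropanoid genes CCoAOMT alone was called. Of 3 cell wall genes LOC102601908 (uptg2) was positive at both times with 0.80 and 1.35 and PEST2, a pectin esterase, was negative at 9 h. Of 5 genes of growth, hormones and flowering, ERS, an ethylene receptor, was positive at both times with 0.64 and 0.49, and IAA3, an auxin response repressor, negative with -0.77 and -0.57. IAA2, of the same family, was called at 27 h with -0.65 and had -0.11 at 9 h, and CO is described below. LOC102577657 (Lea), a late embryogenesis abundant protein of the kind that protects cells from drying, was positive at 9 h with 0.74 and had 0.17 at 27 h. The dehydrin CI7 had no values to test. Of 6 translation genes 1, LOC102577804 (eIF5A3), was called, at 27 h with -0.56. Neither of 2 fermentation genes, ADH1 and LDH-2, was called at either time. Small changes depended on the setting: the call was kept in 6 of 21 alternatives for ERS at 27 h and in 7 of 21 for Lea at 9 h and for SpdSy at 27 h. For ChtA and CCoAOMT it was kept in 21 of 21 at both times.

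**Figure D3:**
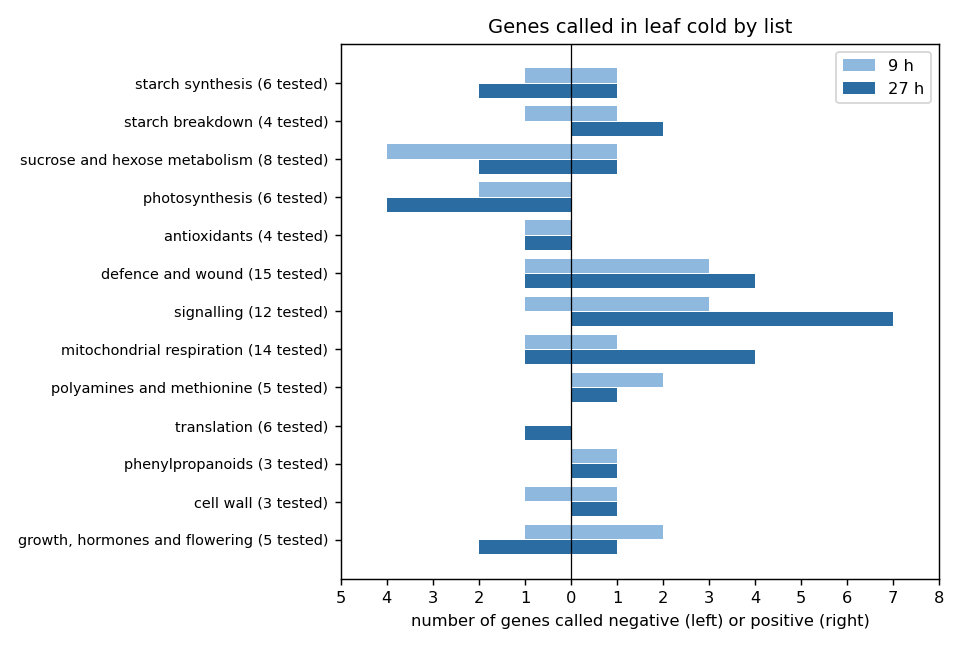
Number of genes called negative (left of 0) and positive (right of 0) in leaf cold at 9 h (light) and 27 h (dark), for gene lists with at least 3 tested genes, whose number stands in each label. Signalling had 7 positive genes at 27 h, and photosynthesis had 4 negative and no positive ones. The calls are those of the main fit, and several were lost under alternatives.

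Few spots were called for a different change at 9 and 27 h, and a spot without a call may still differ. For this difference 2074 spots had an unadjusted limma p under 0.05. The difference between the times was called by limma for 223 spots, or 1.33%, of which 73 were more positive at 27 h (0.435%) and 150 more negative (0.894%). The estimates had opposite signs at the 2 times for 153 of them. The 73 spots had a median change of -0.59 at 9 h and 0.58 at 27 h, and the 150 spots 1.03 at 9 h and -0.26 at 27 h. Of the 223, 42 were called at both times with opposite signs, 26 positive and then negative and 16 negative and then positive. The count depended on the arrays: it was 85, 0 and 99 without experiment 1, 2 and 3, with 1195 spots at an unadjusted p under 0.05 in the fit without experiment 2, and 11 with quantile scaling. It was 122 without the 9 h control array of experiment 2, 122, 88 and 346 without the 27 h cold array of experiment 1, 2 and 3, and 126 and 115 without the 27 h control array of experiment 1 and 3. In the fit without experiment 2 and in the fit with quantile scaling all 223 kept the sign of their difference. They had been chosen for that difference on the same arrays, so the kept sign is no separate check.

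R1 (GWD), the glucan water dikinase that adds phosphate to starch and so opens it to breakdown, changed from negative to positive. Its 4 spots had a median log2 ratio of -0.10, -0.59 and 0.10 on cold arrays at 9 h and 0.30, 0.33 and 0.40 on control arrays. At 27 h the values were 1.40, 0.96 and 0.74 with cold and 0.04, -0.12 and -0.09 without. Cold arrays lay below all control arrays at 9 h and above all of them at 27 h. The median change was -0.58 at 9 h, called on 3 of 4 spots (a call kept in 12 of 21 alternatives), and 1.17 at 27 h, called on all 4. The difference was 1.75 (limma adjusted p of at most 0.0213), and the call was kept in 19 of 21 alternatives, the exceptions being quantile scaling and the fit without experiment 2. At 3 h the change was 0.32.

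CO, a CONSTANS homologue that is known to link day length to flowering and tuber formation, went the other way. Its 2 spots had a median log2 ratio of 1.94, 2.30 and 0.98 on cold arrays at 9 h against -0.04, 0.03 and -0.08 on control arrays. At 27 h they had -1.27, -0.72 and -0.43 with cold and -0.09, 0.03 and -0.49 without. The groups were apart at 9 h and overlapped at 27 h. The change was 1.77 at 9 h (limma adjusted p of at most 0.00031) and -0.62 at 27 h, which was not called. The difference was -2.39 (limma adjusted p of at most 0.00662), kept in 18 of 21 alternatives and lost with quantile scaling and without experiment 1 or 2. At 3 h its estimate was 1.35.

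Aconitase (LOC102587698), of the citric acid cycle, differed with little change at 9 h. Its log2 ratio was 0.04, -0.15 and 0.03 with cold and 0.50, 0.22 and 0.01 without at 9 h, where the groups overlapped. It was 0.69, 0.85 and 0.80 with cold and -0.03, -0.15 and 0.12 without at 27 h, where they did not. The change was -0.21 and 0.80 and the difference 1.08 (limma adjusted p of at most 0.037), kept in 6 of 21 alternatives. PEST2 had -1.32 at 9 h and -0.31 at 27 h, a difference of 1.01 that was kept in 5 of 21. Of the genes with no described role here, LOC102587142 went from -0.59 to 0.58, a difference kept in 16 of 21 alternatives, and LOC102599865 from 1.41 to 0.21, kept in 13 of 21. LOC102577461 went from 2.02 to 1.0 and was called positive at both times, and its difference was kept in 5 of 21 alternatives and lost without the block.

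LOC102600029 had the most stable difference of the named genes. Its 2 spots had 1.37, 1.34 and 0.53 with cold at 9 h and 0.10, 0.19 and 0.22 without, and -1.45, -1.36 and -0.82 with cold at 27 h and -0.13, 0.15 and 0.20 without. Cold arrays were above all control arrays at 9 h and below all of them at 27 h. The change was 0.90 and then -1.29, and the difference of -2.19 (limma adjusted p = 0.000245) was kept in 20 of 21 alternatives, the exception being the fit without experiment 2. In all, 4 of 398 named genes were more positive at 27 h and 4 more negative, or 1.01% each.

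Differences were also called on spots with no gene name here. Spot 156039 had log2 ratios of 3.95, 2.83 and 3.58 with cold at 9 h and 0.08, 0.24 and 0.38 without, and 0.10, 0.47 and 1.21 with cold at 27 h and -0.32, 0.70 and 1.22 without. The change was 3.22 at 9 h and 0.06 at 27 h, and the difference -3.16 (SE 0.43, limma adjusted p = 0.000287). Spot 142073 went from 1.62 to -1.20, spot 148543 from 1.32 to -1.29 and spot 136619 from 1.07 to -1.25. In the other direction spot 156924 went from -2.82 to -0.44, spot 145076 from -0.06 to 1.70, spot 148943 from -1.06 to 0.70 and spot 136932 from -0.90 to 0.69. The difference was kept in 7 of 21 alternatives for spot 148943 and in 8 of 21 for spot 136619, and in 19 or 20 of 21 for the other 6 spots of this kind. Spot 131267 had the most negative change at 9 h, -3.45, with -1.10 at 27 h, a difference that was not called (limma adjusted p = 0.0572).

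The first harvest, at 3 h, places these times in a course. Of 16184 spots tested there too, 3080 were called at 3 h, or 19%. Among the sustained spots, 663 of 1197 positive ones were already called positive at 3 h (10.8% over all spots) and 553 of 1042 negative ones negative (8.22% over all spots), and 2 and 1 had the opposite sign. Their median change at 3 h was 0.58 and -0.53. StWIPK was larger at 3 h than later in its estimates, with 2.40, and ChtA smaller, with 0.96. Between 3 h and 9 h the change differed on 604 spots, or 3.73%, and between 3 h and 27 h on 431, or 2.66%. The harvest at 27 h was 24 h after that at 3 h, and the harvest at 9 h 6 h after it. Among the 73 spots more positive at 27 h, the 3 h estimate lay nearer to the 27 h value for 48 of 71, and among the 150 spots more negative for 79 of 150. The spots were chosen on their 9 and 27 h values and no count over all spots is given, so these counts only describe them. The hour at which the cold began is not given in the sources used here, and the part of the time of day was not tested.

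Root arrays gave values for the same comparisons from other arrays and reference pools, though from the same experiments, in which roots and aerial parts were separated at harvest. Among the sustained positive leaf spots tested in root, 551 of 1113 were called positive in root at 9 h and 744 at 27 h, against 15.1% and 20.8% of all root spots. Among the negative ones 502 of 938 and 647 of 938 were called negative, against 13.6% and 20.7%. Leaf and root differed on 1659 of 14693 spots at 9 h, or 11.3%, and on 2370 at 27 h, or 16.1%. ChtA had a root change of -0.13 at 9 h and 2.56 at 27 h. STWRKY8 had larger root changes, 2.83 and 2.93, and psbP had -1.23 and -1.98.

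The spots that differed between 9 and 27 h in leaf had mostly the same direction of difference in root, where they had not been chosen. Of the 73 spots more positive at 27 h, 62 were tested in root, 53 had a difference of the same direction and 29 were called with it (3.95% over all root spots). Of the 150 more negative, 127 were tested, 108 had the same direction and 44 were called (3.18% over all root spots). None was called with the opposite sign in root. In leaf, 42 of the 73 and 88 of the 150 had a duplicate print called the same way, so these spots are not separate genes. The share of same-direction differences over all spots is not given here. R1 had -0.70 at 9 h and 0.29 at 27 h in root, and CO 4.67 and 2.20, and both differences were called there too. Aconitase had -0.08 and 0.82 in root, also called, and LOC102587142 had -1.29 and 0.82. LOC102600029 had 0.76 and -0.06 in root on spot 133229, a difference that was not called there (limma adjusted p = 0.18). Spot 148943 had the largest of these root differences among the named spots, from -1.87 to 1.39 (3.26, limma adjusted p = 3.38e-09). With quantile scaling the spots called alike in root numbered 17 and 7.

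**Figure D4:**
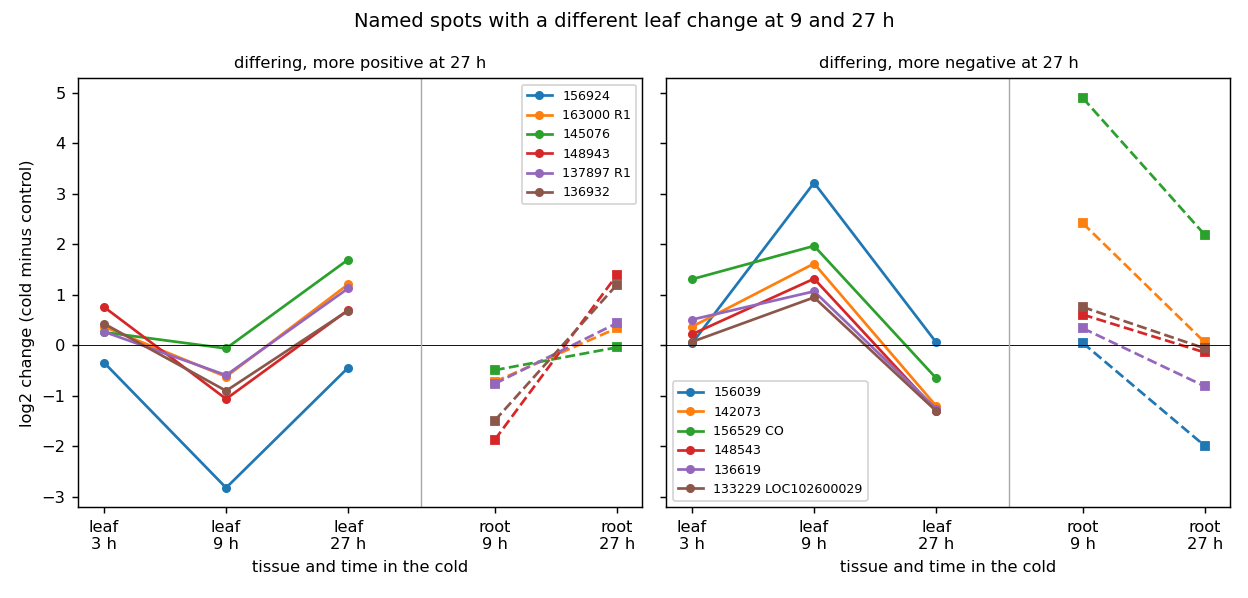
Log2 change (cold minus control, vertical axis) of the 12 named spots that differed between 9 and 27 h in leaf, at 3, 9 and 27 h in leaf (circles) and at 9 and 27 h in root (squares; no root value for spot 156924). The leaf values at 9 and 27 h chose the spots, and the root lines run the same way for all 11 spots with root values. The root difference was not called for spots 145076, 148543, 136619 and 133229 (LOC102600029), and spots 163000 and 137897 are both R1.

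Salt and heat arrays of leaf share the control arrays with cold, so their values are given side by side only. ChtA changed by 2.70 at 9 h and 3.49 at 27 h under salt and by -0.98 at 9 h under heat. Spot 143827 changed by 5.28 and 5.85 under salt and by 0.18 and 0.04 under heat. LOC102577637 had 3.06 and 3.48 under salt on spot 159279. For CO salt gave -0.02 and -0.32 on spot 156529, and for R1 0.17 and 1.17 on spot 163000. STWRKY8 had 0.47 and 0.45 under salt, beside 1.34 and 1.85 under cold.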

How the data were processed

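RNA of potato leaf was measured on 12 arrays, 3 cold and 3 control at 9 and 27 h. The authors deposited a log2 ratio per spot, made with limma per the submitters' processing notes; the background correction, the normalization and the numerator are unstated there. Arrays carry no read depth, and their number limits the precision. Spots with at least 2 values in each of the 4 groups were fitted with limma 3.58.1 (lmFit and eBayes, R 4.3.3) on all 36 leaf arrays, with the 9 reference pools as blocks and an effect of each stress within each time. P-values were Benjamini-Hochberg adjusted over all 16772 spots, at 0.05. The labels pair the arrays, since 4 arrays of a time and number share a pool and an experiment; deviations of same-numbered cold and control arrays correlated with r from -0.02 to 0.05 at 9 h and 0.29 to 0.50 at 27 h. Root was fitted in the same way, and leaf against root on 72 arrays. The blocks take out the level of each repeat. The p-values therefore measure how far the stress changes varied between repeats, pooled over all stresses and times fitted and moderated by eBayes.

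Duplicate spots were found from correlations between rows. Genes came from the platform annotation, with symbols of RefSeq. Named spots needed values on all 12 arrays, the same sign in every same-numbered difference of the contrast and a called duplicate; the 8 largest sustained changes and 6 largest differences of each sign, the largest change of each sign at each time and listed genes are given. Members and gene lists were chosen with earlier results of these data known. The fit was tested on simulated data. Alternatives were the block, the arrays fitted, the scaling, the filter, duplicates, eBayes, the threshold and left-out arrays. The labels give both a column kit and phenol or trizol for extraction.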

Additional observations from a re-analysis of the deposited data

Results flagged for a closer look

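The results below were picked because the test of a difference between 2 times or tissues passed the threshold. The cold change in leaf differed between 9 and 27 h on 223 spots, between 3 and 9 h on 604 and between 3 and 27 h on 431. It differed between leaf and root on 1659 spots at 9 h and 2370 at 27 h.

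Among named spots the log2 change at 27 h exceeded that at 9 h by 2.38 on spot 156924, 1.84 on spot 163000 (R1), 1.76 on spots 145076 and 148943, 1.72 on spot 137897 (R1) and 1.60 on spot 136932. It was lower at 27 h on 6 spots, with differences of -3.16 on spot 156039, -2.82 on spot 142073, -2.63 on spot 156529 (CO), -2.61 on spot 148543, -2.32 on spot 136619 and -2.25 on spot 133229 (LOC102600029).

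Over the spots of a gene, the median difference was 1.75 for R1, 1.13 for LOC102587142, 1.08 for LOC102587698 (aconitase) and 1.01 for PEST2. It was -2.39 for CO, -2.19 for LOC102600029, -1.21 for LOC102599865 and -1.02 for LOC102577461. Spot 159279 (LOC102577637) was positive in leaf and negative in root, with a leaf minus root difference of 4.15 at 9 h and 4.87 at 27 h.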

How the results depend on the processing

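The counts of calls at 9 h, at 27 h, at both times and for their difference were 3621, 3439, 1912 and 152 without the replicate block. With only the 12 arrays fitted the difference gave 81 calls with the replicate block and 71 without. Quantile scaling gave 1820, 2128, 818 and 11, and 63.6% of the differences were then more positive at 27 h, against 32.7%; it forces cold and control arrays to the same distribution, so that 2.74% of spots lay beyond 2-fold on cold and 2.77% on control arrays at both times. Averaged duplicates, with 9148 values tested, gave 2451, 2459 and 1384 at 9 h, 27 h and both, and a threshold of 0.01 gave 2481, 2268, 1261 and 72. At 1.5-fold the shares were 24.3% and 3.83% at 9 h and 22.1% and 3.52% at 27 h for cold and control. Leaving out an experiment or an array gave 1536 to 4269 calls at 9 h, 1451 to 4304 at 27 h, 625 to 2181 at both and 0 to 346 for the difference. The other alternatives tried kept these counts within 1.5 times.

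For the comparisons with 3 h and root, chosen for this after seeing the data, dropping the block gave 372 calls for 9 h against 3 h, 222 for 27 h against 3 h and 741 for root 27 h against 9 h. Quantile scaling gave 93, 7 and 153 for these, 2936 and 3911 for root cold at 9 and 27 h, 616 and 527 for leaf against root, and 17 and 7 for leaf differences called alike in root. No named spot or gene reversed under the alternatives run, but only values called on these same arrays were followed. Named spots also had the same sign in every same-numbered difference by choice, so a reversal was hardly possible for them. Among the values of named genes that were called, 399 kept the call and 99 lost it under other settings, and 988 kept it and 257 lost it when arrays were left out; for named spots these numbers were 367, 23, 919 and 56. The cause of these shifts was not tested.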
